A study of Sus scrofa with 12 samples.

Results

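The genes described here encode the kynurenine pathway of tryptophan breakdown with its side branch to kynurenic acid, in pig liver. They were named by their place in the pathway, as TDO2, AFMID, KMO, KYNU, HAAO, ACMSD, QPRT and AADAT, and AADAT was selected on its measured values in these libraries, since it is listed at 0 in some of them. Of the 8 genes, 3 (KMO, KYNU and AADAT) had a row under their symbol among the 31694 genes of the expression files. A further 2 were found through their NCBI gene IDs, ACMSD as LOC100154768 and QPRT as LOC100623339, and the other 3 (TDO2, AFMID and HAAO) were not analysed here.

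Liver mRNA of 3 Jinhua (JH) and 3 Landrace (LD) pigs, uncastrated males 70 days old, was sequenced in 1 library per pig. Jinhua is a Chinese native breed and Landrace a lean, fast-growing one, and the question was how gene expression in the liver differs between them. Expression is given in RPKM, the reads of a gene scaled to its length and to the size of the library, so levels of different genes can be set side by side. The totals behind the values were recovered, rounded here, as 5740000 reads in JH1, 7760000 in JH2 and 7740000 in JH3, and as 7100000, 7890000 and 7910000 reads in LD1, LD2 and LD3. Each is smaller than the number of clean reads that the paper reports for that library, and the source of the gap was not tested.

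The liver breaks down most of the tryptophan that is not built into protein, and it does so mainly through kynurenine. TDO2 opens the ring, AFMID releases kynurenine, and KMO, KYNU and HAAO then carry it by way of hydroxylated intermediates to an unstable semialdehyde, from which ACMSD leads towards complete oxidation and QPRT, after a spontaneous ring closure to quinolinate, towards NAD. AADAT and a few related transaminases instead turn kynurenine into kynurenic acid, and AADAT also acts on 2-aminoadipate in lysine breakdown.

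KMO, the flavoprotein that hydroxylates kynurenine, was at 130, 85.9 and 68.6 RPKM in JH1, JH2 and JH3, and at 85.2, 69.2 and 77.2 RPKM in LD1, LD2 and LD3. JH1 held the highest value and JH3 the lowest, so the breeds overlapped. JH averaged 94.7 ± 31.5 RPKM and LD averaged 77.2 ± 8.0 RPKM (SD, n = 3 each). The log2 fold change, JH over LD, came to 0.25 with a standard error of 0.28 and a 95% confidence interval of -0.39 to 0.88, and limma gave an adjusted p = 0.69 after Benjamini-Hochberg adjustment over 12993 genes. Fold changes are on the scale of log2(RPKM + 0.1), which understates the change of low genes. Without JH1 the log2 fold change of KMO was -0.0041, so its sign rested on that library. It was 0.45 without JH3 and 0.082 under quantile normalization.

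KYNU, the pyridoxal phosphate enzyme that cleaves the product of KMO, was at 16.6, 10.8 and 8.67 RPKM in the JH libraries and at 12.8, 19.4 and 16.4 RPKM in the LD libraries, in the order of their numbers. The ranges overlapped, with the lowest values in JH3 and JH2 and the highest in LD2. The log2 fold change was -0.46 ± 0.30 (SE, 95% confidence interval -1.14 to 0.22, limma adjusted p = 0.468), and lay between -0.71 without JH1 and -0.25 without JH3. In the level per length KMO stood above KYNU in each of the 6 libraries.

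After the step of HAAO, the row matched to ACMSD was at 5.09, 5.26 and 3.38 RPKM in JH and at 11.6, 10.04 and 5.16 RPKM in LD. LD1 and LD2 lay above every JH library, while LD3 fell between JH1 and JH2. The log2 fold change was -0.90 ± 0.35 (SE, 95% confidence interval -1.68 to -0.11), with a limma adjusted p = 0.219 that did not pass the threshold. These values rested on few reads, between 34 in JH3 and 107 in LD1, as recovered from the RPKM.

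The row matched to QPRT, which makes nicotinate mononucleotide from quinolinate, stood at 130, 150 and 111 RPKM in JH and at 130, 137 and 90.7 RPKM in LD. It overlapped between the breeds, and the lowest value of each breed was in its library 3. The median RPKM of all genes above 0 was also lowest there within each breed, at 2.426 in JH3 and 2.428 in LD3. The log2 fold change of the QPRT row was 0.14 ± 0.26 (SE, 95% confidence interval -0.44 to 0.72, limma adjusted p = 0.816), and without LD3 it was -0.044. It was 0.037 without JH2, 0.25 without JH3, 0.26 without LD2 and 0.026 under quantile normalization. KMO and the QPRT row were the most abundant of the measured pathway genes in the LD libraries, and the ACMSD row was the least abundant of those above 0 in each of the 6 libraries.

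Genes were called differentially expressed where the adjusted p was below 0.05 and the log2 fold change was above 1 in size, a rule that called 310 of the 12993 tested genes (2.39%), 133 higher in JH (1.02%) and 177 lower in JH (1.36%). The split was 41 higher and 38 lower without LD1, and 59 and 55 without LD2. It was 57 higher and 107 lower without JH1, and 49 and 101 without JH2. Of the pathway genes found by symbol other than AADAT, limma called 0 of 2, and 0 of 2 had an unadjusted p below 0.05. With the rows matched by gene ID, 0 of 4 were called and 1, the ACMSD row, had an unadjusted p below 0.05, as did 17.9% of all tested genes. All 3 JH values lay above all 3 LD values in 10.8% of all tested genes and below them in 12.5%, and in 0 of these 4. The median log2 fold change of the 4 was -0.16, beside 0.04 over all tested genes. Single libraries weighed on both medians, and that over all tested genes was 0.149 without JH3 and -0.0572 without LD3. In bulk tissue, fewer cells of a type and less RNA per cell cannot be told apart.

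**Figure D1:**
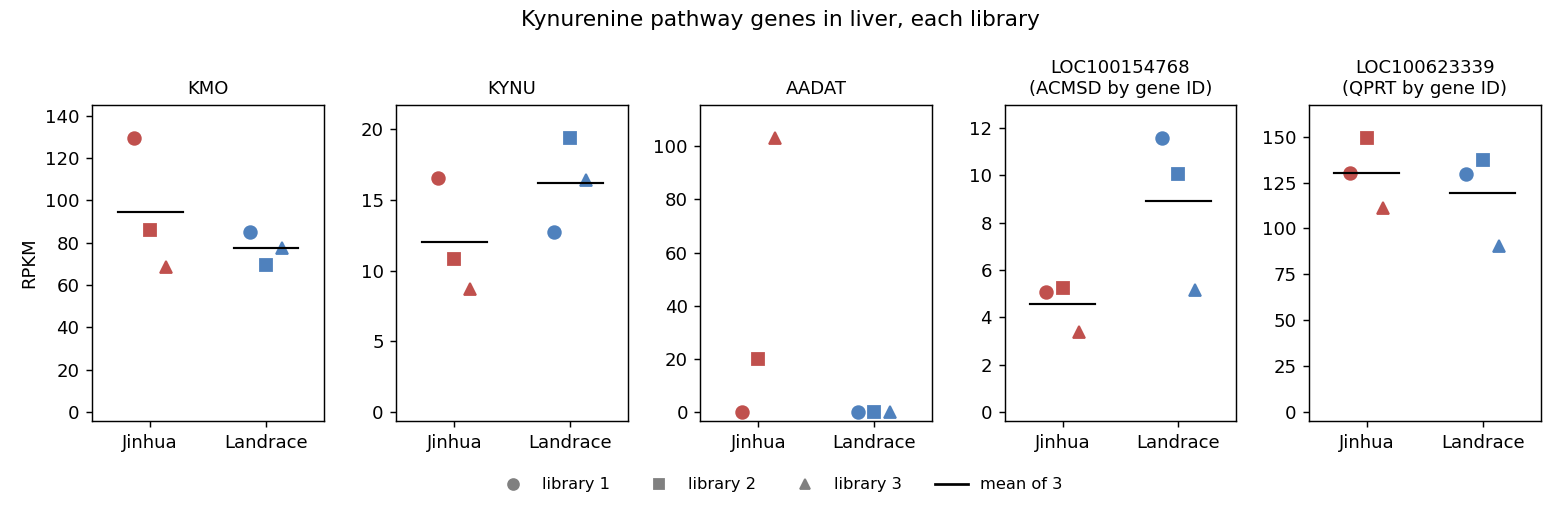
RPKM of the 5 measured kynurenine pathway genes in each liver library, with JH (Jinhua) in red and LD (Landrace) in blue; marker shapes give the library number, which does not link pigs of different breeds, and lines give the mean of 3 libraries, left out for AADAT. AADAT was above 0 in JH2 and JH3 and listed at 0 in the other 4 libraries, while the other 4 genes overlapped between the breeds.

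AADAT, the transaminase known as kynurenine aminotransferase II, was listed at 0 RPKM in JH1, at 19.97 RPKM in JH2, at 103 RPKM in JH3 and at 0 RPKM in LD1, LD2 and LD3. It was thus above 0 in 2 of the 3 JH libraries and in 0 of the 3 LD libraries, and JH1 shared its listed value with LD. As the gene was selected on these values, its difference between the breeds is a description and was not tested. It also lay under the filter on low values, which asked for 3 or more libraries with 0.5 RPKM or more.

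The level in JH3 was well above that of KYNU in the same library, and exceeded that of KMO. Among the genes above 0 in a library, AADAT stood above 82.6% in JH2 and above 96.6% in JH3, where KMO stood above 94.7% and 94.9%. The values correspond to 312 reads in JH2 and 1609 reads in JH3 over a gene model of 2014 bases. At the level of JH2, the other libraries would have held 231 reads in JH1 and 286, 317 and 318 reads in LD1, LD2 and LD3. With 3 reads, AADAT would have been listed at 0.259 RPKM in JH1 and between 0.188 and 0.210 RPKM in the LD libraries, for counting error alone.

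A listed 0 may be a failed estimate. Of the 31694 genes, 12080 were listed at 0 in all 6 libraries, among them APOB, ECHS1 and PDXK, which liver cells use. Whether the 0 values of AADAT are failed estimates was not tested. The following counts include AADAT itself, which was selected on these values. Of the 960 genes that reached 100 RPKM in at least 1 library, 3 were listed at 0 in another (0.312%), and these were AADAT, SAA4 and LOC100736819. Of the 3382 genes that reached 20 RPKM, 11 were listed at 0 in another library (0.325%).

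SAA4, an apolipoprotein of the serum amyloid A family, was listed at 0 in JH2 and lay between 17.9 and 210 RPKM elsewhere. LOC100736819 was listed at 0 in LD3 and lay between 81.4 and 172 RPKM elsewhere. At 50 RPKM the count was 7 of 1691 genes (0.414%), the further 4 being LOC100517224, CA3, LOC100526118 and SERPINA11. SERPINA11, a member of the serpin family, was listed at 0 in JH1 and JH3, at 0.103 RPKM in JH2 and between 33.5 and 56.9 RPKM in LD, so AADAT was not the sole gene of this kind with a 0 in more than 1 library.

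Other transaminases that can form kynurenic acid were present in all 6 libraries. CCBL1, the older symbol of KYAT1, was at 9.38, 7.06 and 4.66 RPKM in JH and at 2.67, 4.96 and 3.32 RPKM in LD. JH1 and JH2 lay above the LD libraries and JH3 fell among them, with a log2 fold change of 0.92 ± 0.34 (SE, limma adjusted p = 0.198). CCBL2, the older symbol of KYAT3, was at 64.7, 59.8 and 45.8 RPKM in JH and at 55.7, 43.4 and 41.6 RPKM in LD, and the breeds overlapped. GOT2, the mitochondrial aspartate transaminase, was at 62.6, 52.6 and 51.1 RPKM in JH and at 61.6, 87.3 and 74.6 RPKM in LD. Its lower values were in JH2 and JH3, and JH1 overlapped with LD1. The log2 fold change was 0.27 for CCBL2 (limma adjusted p = 0.61) and -0.42 for GOT2 (limma adjusted p = 0.40). That of CCBL2 was 0.11 under quantile normalization, 0.17 without JH1 and 0.42 without JH3.

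Summed over these 3 genes without AADAT, the level was 137, 119 and 102 RPKM in JH1, JH2 and JH3, and 120, 136 and 120 RPKM in LD1, LD2 and LD3. AADAT added 14.3% of the sum of all 4 in JH2 and 50.4% in JH3. In JH3, the library with the most AADAT, the other 3 genes together had their lowest sum. The median RPKM of all genes above 0 was also lowest in JH3, at 2.426, beside 3.047 in JH1 and 2.926 in JH2. In LD1, LD2 and LD3 that median was 2.871, 2.773 and 2.428. The part of this library-wide level in the sum was not tested.

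**Figure D2:**
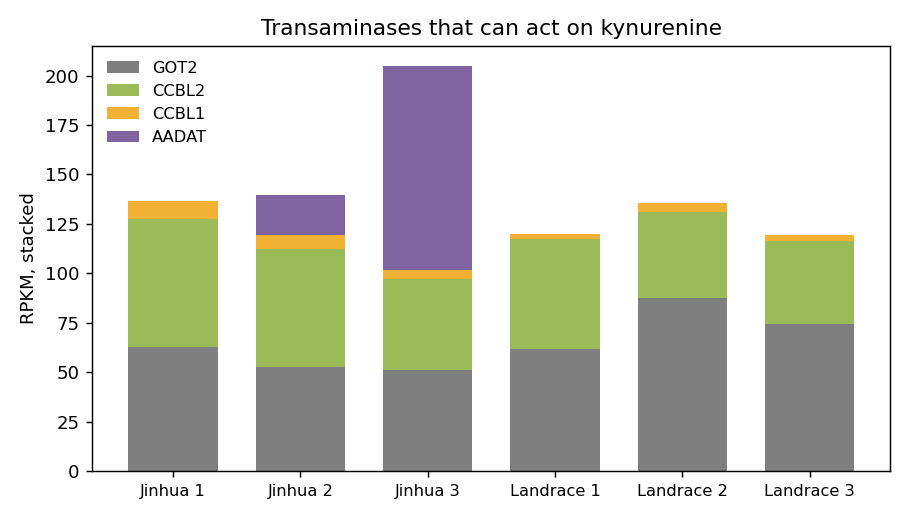
RPKM of 4 transaminases that can act on kynurenine, stacked for each JH (Jinhua) and LD (Landrace) liver library. AADAT made up 14.3% of the sum in JH2 and 50.4% in JH3 and was listed at 0 in the other 4 libraries, whereas GOT2 and CCBL2 held most of the sum in every library but JH3.

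Ordered by their place on assembly Sscrofa11.1 (RefSeq), the 3 genes on one side of AADAT (LOC110256746, LOC102167385 and LOC110256745) were not analysed here, nor was LOC100157248 on the other side. MFAP3L, the nearest gene on that side, was at 7.87, 6.07 and 6.32 RPKM in JH and at 4.05, 3.88 and 4.81 RPKM in LD. Its JH values lay above its LD values, including in JH1 where AADAT was listed at 0, with a log2 fold change of 0.65 ± 0.24 (SE, limma adjusted p = 0.199). LOC102166040, farther on the same side, did not exceed 1.68 RPKM.

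Across the 6 libraries, the tested genes most like AADAT in log2(RPKM + 0.1) were LOC100626258 (Pearson r = 0.987), LOC100514124 (0.981), HARBI1 (0.976), ZBTB10 (0.975) and NT5DC1 (0.962). ZBTB10, which encodes a zinc finger protein, was at 4.08 RPKM in JH2 and 6.40 RPKM in JH3 and between 1.46 and 2.04 RPKM elsewhere. Those least like it were LOC100737874 (r = -0.996), VGLL4 (-0.993) and C2CD2 (-0.987). VGLL4, a transcription cofactor, was at 4.82 RPKM in JH2 and 3.998 RPKM in JH3 and between 6.71 and 7.03 RPKM elsewhere. These correlations describe 6 points, 4 of which share an AADAT value of 0, and were picked from 12993 genes.

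Some other measures also set JH2 or JH3 apart. RN18S, the ribosomal RNA of the small subunit, was at 5991, 1570 and 62257 RPKM in JH1, JH2 and JH3, and at 7309, 2108 and 20160 RPKM in the LD libraries. It was highest in JH3, as AADAT was, but lowest in JH2. The summed level of 8 lymphocyte markers was 22.9, 78.9 and 26.6 RPKM in the JH libraries and 34.5, 26.5 and 35.8 RPKM in the LD libraries, with PTPRC the most abundant. JH2 stood out in this sum and JH3 did not, though not in every marker, as the B cell marker MS4A1 was at 0.918 RPKM in JH2 and 0.974 RPKM in JH3. The part of ribosomal RNA and of lymphocytes in the AADAT values was not tested.

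Of markers of kidney tubule, another tissue that makes AADAT, SLC34A1, LRP2, AQP2, CDH16 and the row matched to UMOD were listed at 0 in all 6 libraries. So were 12080 genes in all, APOB among them, and the part of kidney tissue in the AADAT values was not tested. Markers of the labelled tissue were high, with ALB between 27533 and 53893 RPKM and TTR between 6414 and 8782 RPKM. Of the 8 hepatocyte markers, APOB was listed at 0 and AHSG was not analysed here. Their summed level was 50611, 46120 and 50885 RPKM in JH and 82428, 66038 and 81000 RPKM in LD, lower in each JH library. Of 6 tested, 0 were called (2.39% over all tested genes) and 3 had an unadjusted p below 0.05 (17.9%). All JH values lay below LD in 4 of the 6 (12.5%) and above LD in 0 (10.8%). All 6 log2 fold changes were negative, with a median of -0.43. The part of hepatocyte content in the AADAT values was not tested.

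Some markers of other cell types were called between the breeds. Over all tested genes 2.39% were called, 1.36% as lower in JH. All JH values lay above LD in 10.8% of all tested genes and below LD in 12.5%. They lay below in 5 of 8 stellate, 2 of 3 bile duct, 1 of 2 erythroid, 1 of 8 macrophage and 3 of 6 endothelial markers, and above in 0. Of 6 periportal markers 1 lay above and 1 below, and of 5 around the central vein 1 lay above and 2 below. Among 8 stellate cell and fibroblast markers, 3 of 8 were called lower in JH (COL1A1, COL1A2 and COL3A1), where 1.36% of all tested genes were, and their sum, led by COL3A1, was 84.2, 103 and 84.3 RPKM in JH and 301, 396 and 196 RPKM in LD. Of the bile duct markers 1 of 3 tested (EPCAM) was called lower in JH, and their sum, led by SPP1, was 11.3, 15.7 and 7.08 RPKM in JH and 35.2, 35.03 and 15.1 RPKM in LD. Of the erythroid markers 1 of 2 tested (HBB, which led the sum) was called lower in JH, with a sum of 99.3, 90.2 and 122 RPKM in JH and 393, 213 and 235 RPKM in LD. With KRT19, found by gene ID (log2 fold change -1.72, limma adjusted p = 0.0716, each JH value lower), and KRT7, listed at 0, the bile duct sum was 16.1, 20.02 and 9.32 RPKM in JH and 54.1, 48.3 and 21.9 RPKM in LD. The sums of these 3 cell types were lower in every JH library than in any LD library, except that bile duct overlapped without KRT19. The KRT19 row was called without LD3 and under quantile normalization or median scaling. Of the macrophage markers, 0 of 8 tested were called, with CD163 listed at 0. C1QC was the highest in mean over all libraries, though CD14 lay above it in JH1 and LD2. The macrophage sum was 1304, 2247 and 1028 RPKM in JH and 1535, 1775 and 1628 RPKM in LD, which overlapped. Single markers went both ways, with C1QB at a log2 fold change of 1.76 and CSF1R at 1.23 (0.55 with a pseudocount of 1), both with overlap, and CD5L at -0.65, lower in every JH library. Of the endothelial markers 0 of 6 tested were called. PECAM1 was the highest in mean over all libraries, though LYVE1 lay above it in JH2. The endothelial sum was 59.8, 55.5 and 58.4 RPKM in JH and 78.7, 84.4 and 80.96 RPKM in LD, lower in every JH library. Among periportal hepatocyte markers, 0 of 6 tested were called, GLS2 was listed at 0, and the sum, led by ASS1, was 2214, 1138 and 819 RPKM in JH and 936, 1111 and 931 RPKM in LD, which overlapped. ARG1 was higher in every JH library (log2 fold change 1.14, or 0.72 without JH1), CPS1 was lower in every JH library (-0.40), SDS overlapped (1.18), and PCK1 was at 753 RPKM in JH1 and between 28.04 and 169 RPKM elsewhere. Of the markers of hepatocytes around the central vein, 1 of 5 tested (GLUL) was called lower in JH, and their sum, led by CYP2E1, was 1623, 1179 and 599 RPKM in JH and 2557, 1740 and 1760 RPKM in LD, again lower in every JH library. Of these 5, 3 had negative and 2 had positive log2 fold changes, OAT at 0.91 with every JH value higher (limma adjusted p = 0.194, called without JH3) and AXIN2 at 0.97 with overlap. Without JH1 that of OAT was 0.60 and that of AXIN2 0.63, and that of AXIN2 was 0.50 without LD3 and 0.54 with a pseudocount of 1. With 1 library left out, COL1A1 was called each time, COL3A1 was not called without LD1 or LD2, COL1A2 without JH1, JH3, LD1 or LD2, and EPCAM, HBB and GLUL without any library but JH3, at limma adjusted p of 0.0566 to 0.167 where not called. COL1A2, HBB and GLUL were also not called with a pseudocount of 0.01, these 3 and EPCAM with no filter on low values, and GLUL with median scaling. Calls were gained by C1QB without LD1 (log2 fold change 2.74, limma adjusted p = 0.02, but 1.102 without LD2 and not called), by TF and ALAS2 without JH3, and by KDR under quantile normalization. The part of these cell types in the pathway values was not tested.

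Beyond the 8 genes, 18 other enzymes acting on tryptophan and its products were listed, and 14 had a row under a symbol. Of 11 tested, 0 were called higher and 1 was called lower in JH (1.02% and 1.36% over all tested genes), with a median log2 fold change of -0.06, and 4 had an unadjusted p below 0.05 (17.9%). The values of 1 lay apart upwards in JH and those of 2 downwards (10.8% and 12.5%).

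TPH1, which starts the synthesis of serotonin from tryptophan, was at 9.39, 8.11 and 10.6 RPKM in JH and at 24.0, 18.5 and 19.998 RPKM in LD. Every LD library lay above every JH library, and the log2 fold change was -1.14 ± 0.24 (SE, 95% confidence interval -1.68 to -0.61, limma adjusted p = 0.0445). The call was lost when any 1 library other than JH3 was left out, with an adjusted p between 0.111 and 0.165 from limma, and also with a pseudocount of 0.01 or no filter on low values.

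ALDH8A1, which oxidises the product of ACMSD, was at 20.7, 19.5 and 26.4 RPKM in JH and at 71.8, 62.9 and 36.4 RPKM in LD. The LD values all lay above the JH values, as for TPH1, but the log2 fold change of -1.31 ± 0.30 (SE) missed the threshold with a limma adjusted p = 0.0601. It passed without LD3 (adjusted p = 0.0399) and under quantile normalization (0.0383) or median scaling (0.0421), within a range of 0.0383 to 0.201 over the alternatives from limma.

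INMT, a methyltransferase of tryptamine and other amines, had the highest mean of this list over all libraries. It was at 291, 680 and 529 RPKM in JH and 209, 200 and 170 RPKM in LD. The JH values all lay above the LD values, and the log2 fold change was 1.29 ± 0.33 (SE, limma adjusted p = 0.0835). Without JH1 it was 1.64 with a limma adjusted p = 0.0297, within a range of 0.0297 to 0.225 over the alternatives. MAOB, a monoamine oxidase, was second in mean over all libraries but lay above INMT in every LD library. It was between 166 and 239 RPKM and overlapped between the breeds.

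Beside TDO2, IDO1 and IDO2 open the indole ring. IDO1, which immune signals induce, was listed at 0 in JH1, at 4.95 RPKM in JH2, at 1.43 RPKM in JH3 and between 0.248 and 0.459 RPKM in LD, and it did not pass the filter on low values. Its highest value was in JH2, the library with the highest lymphocyte markers, and their part in it was not tested. The row matched to IDO2 by gene ID was at 3.42, 8.04 and 7.61 RPKM in JH and at 8.46, 14.2 and 8.90 RPKM in LD, all LD above all JH (log2 fold change -0.77, limma adjusted p = 0.319), and without JH1 its log2 fold change was -0.38. DDC, the decarboxylase that makes serotonin, was at 11.7 RPKM in JH1 and between 61.6 and 78.9 RPKM in the other 5 libraries. The aldehyde oxidase AOX1 did not exceed 0.137 RPKM under its symbol, while the row matched to it by gene ID was at 72.4, 68.8 and 60.1 RPKM in JH and at 145, 118 and 113 RPKM in LD. All LD values of that row lay above the JH values, and its log2 fold change of -0.90 ± 0.23 (SE) had a limma adjusted p = 0.0885, or -1.05 and 0.0223 under quantile normalization. IDO1, DDC, AOX1 and the rows matched by gene ID were chosen for description after their values were seen.

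AADAT also serves lysine breakdown, which meets the tryptophan route at 2-oxoadipate, upstream of glutaryl-CoA. Of the 13 genes listed for these steps, 12 had a row under a symbol, and ECHS1 was listed at 0 in all libraries. Of 11 tested, 0 were called (2.39% over all tested genes), though 6 had an unadjusted p below 0.05 (17.9%). All 3 JH values lay above the LD values in 5 genes and below them in 1 (10.8% and 12.5% over all tested genes), and the median log2 fold change was 0.17.

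AASS, which starts lysine breakdown, was at 3.67, 3.30 and 4.20 RPKM in JH and at 9.12, 6.16 and 9.95 RPKM in LD. It was lower in every JH library than in any LD library, with a log2 fold change of -1.13 ± 0.27 (SE, limma adjusted p = 0.067). GCDH, which oxidises glutaryl-CoA, was at 14.3, 9.39 and 10.3 RPKM in JH and at 8.77, 5.71 and 4.80 RPKM in LD. Here the JH libraries were the higher ones, with a log2 fold change of 0.83 ± 0.30 (SE, limma adjusted p = 0.19).

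ACAT1, the thiolase that yields acetyl-CoA, was at 247, 186 and 233 RPKM in JH and at 160, 94.4 and 114 RPKM in LD, with a log2 fold change of 0.88 (limma adjusted p = 0.138). ETFB, which with ETFA takes electrons from GCDH, was at 416, 357 and 301 RPKM in JH and 193, 261 and 204 RPKM in LD (log2 fold change 0.71, limma adjusted p = 0.182). Its mean over all libraries was the highest of the list, though HADH and ETFA lay above it in LD1. The other genes with all JH values above LD were ETFDH (log2 fold change 0.69, or 0.44 without JH1) and DLD (0.54). HADH, second in mean over all libraries, lay between 157 and 241 RPKM and overlapped, and was below ACAT1 in every JH library.

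The route through QPRT ends in NAD. Of 17 genes of NAD synthesis and use, 13 had a row under a symbol, and NMRK2 was listed at 0 in all libraries. Of 12 tested, 0 were called (2.39% over all tested genes), with 2 at an unadjusted p below 0.05 (17.9%). The JH values lay above in 3 genes and below in 2 (10.8% and 12.5%), and the median log2 fold change was -0.01. NNMT, which methylates nicotinamide, had the highest mean of these genes over all libraries, though NADK2 lay above it in LD1 and LD2. In LD1, NNT, NMRK1, NMNAT1 and SIRT3 also lay above NNMT. NNMT was at 85.6, 162 and 94.3 RPKM in JH and at 14.8, 51.1 and 73.6 RPKM in LD. The breeds did not overlap, but the values spread widely within each, and the log2 fold change of 1.51 ± 0.54 (SE) had a limma adjusted p = 0.187. Without LD1 its log2 fold change was 0.83.

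NUDT12, which hydrolyses NADH, had a log2 fold change of 0.87 ± 0.24 (SE, limma adjusted p = 0.108), with 13.4 to 17.8 RPKM in JH and 7.46 to 10.01 RPKM in LD. NADK2, the mitochondrial NAD kinase, lay the other way at 35.1 to 58.9 RPKM in JH and 59.7 to 85.4 RPKM in LD (log2 fold change -0.56, or -0.32 without JH1, limma adjusted p = 0.338 with all libraries). The remaining genes that lay apart were NMNAT1, higher in JH, and NMNAT2, lower in JH at under 1 RPKM.

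Kynurenine and kynurenic acid are ligands of the aryl hydrocarbon receptor. Of 12 genes of tryptophan transport and of this receptor, 8 had a row under a symbol, and SLC6A19 was listed at 0. Of 7 tested, 0 were called (2.39% over all tested genes), with 0 at an unadjusted p below 0.05 (17.9%). The breeds overlapped in all 7, where JH lay above LD in 10.8% and below in 12.5% of all tested genes. The median log2 fold change was -0.01. Of the receptor's target genes, CYP1A1 was at 246, 662 and 853 RPKM in JH and 460, 495 and 315 RPKM in LD, and TIPARP at 1.06, 1.81 and 4.80 RPKM in JH and 3.47, 3.75 and 2.49 RPKM in LD. Both were highest in JH3, as AADAT was, but TIPARP was lower in JH2 than in any LD library. CYP1A2, another target, was highest in JH1 at 503 RPKM and lowest in JH3 at 177 RPKM. The relation of these targets to AADAT was not tested. Among the genes found by symbol, the largest differences were those of TIPARP (log2 fold change -0.57), the aromatic amino acid transporter SLC16A10 (0.52) and the receptor's partner ARNT (-0.41), and the row matched by gene ID to the transporter SLC7A8 was at -0.55. Single libraries weighed on them, as TIPARP was at -0.10 without JH1 and -1.15 without JH3, SLC16A10 at 0.23 without LD3, 0.34 without JH1 and 0.81 without JH3, and the SLC7A8 row at -0.85 without JH1 and -0.34 without JH3. With a pseudocount of 1, TIPARP was at -0.38 and the SLC7A8 row at -0.35.

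The transaminases and KYNU need pyridoxal phosphate, and KMO needs FAD. Of 5 genes of cofactor supply, 4 had a row under a symbol, PDXK was listed at 0 in all libraries, and of 3 tested 1 was called higher and 0 lower in JH (1.02% and 1.36% over all tested genes), with a median log2 fold change of 0.13. PDXP, the phosphatase that removes the phosphate from pyridoxal phosphate, was at 5.33, 2.78 and 4.73 RPKM in JH and at 0.424, 0.826 and 0.951 RPKM in LD. Every JH library lay above every LD library, with a log2 fold change of 2.40 ± 0.39 (SE, 95% confidence interval 1.53 to 3.27, limma adjusted p = 0.0172). Without JH1 the adjusted p was 0.0588 and without LD1 it was 0.073, at log2 fold changes of 2.22 and 2.10. With a pseudocount of 1 the log2 fold change was 1.59. The LD values rested on 6, 13 and 15 reads. FLAD1 and RFK, which make FAD from riboflavin, overlapped between the breeds, and the sign of each changed when 1 library was left out.

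Glucocorticoids induce TDO2 and TAT in liver. All 6 listed genes that respond to these hormones were tested and 0 were called (2.39% over all tested genes). An unadjusted p below 0.05 was found for 1 (17.9%), and the median log2 fold change was 0.08. All JH values lay above LD in 1 gene and below LD in 1 (10.8% and 12.5%). FKBP5 was at 29.9, 16.3 and 30.4 RPKM in JH and at 4.96, 5.07 and 15.4 RPKM in LD. The JH values were all higher, LD3 coming close to JH2, and the log2 fold change of 1.74 ± 0.45 (SE) had a limma adjusted p = 0.0919. Without LD3 it was 2.27 with a limma adjusted p = 0.0226, within a range of 0.0226 to 0.254 over the alternatives.

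SGK1 was lower in each JH library, at 14.4 to 19.0 RPKM against 20.03 to 39.3 RPKM in LD (log2 fold change -0.64, limma adjusted p = 0.302), and PER1 overlapped (0.70, limma adjusted p = 0.488). Without LD1 their log2 fold changes were -0.35 and 0.13, and that of PER1 was 1.15 without LD3. TAT, the tyrosine transaminase and most abundant of the list, was at 140, 185 and 482 RPKM in JH and at 167, 162 and 353 RPKM in LD. TSC22D3, second in mean over all libraries but not in each library, was at 19.2, 16.4 and 43.6 RPKM in JH and at 16.2, 27.9 and 28.2 RPKM in LD. Both were highest within JH in JH3 and within LD in LD3, TSC22D3 there by a small margin over LD2. Their relation to AADAT was not tested.

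**Figure D3:**
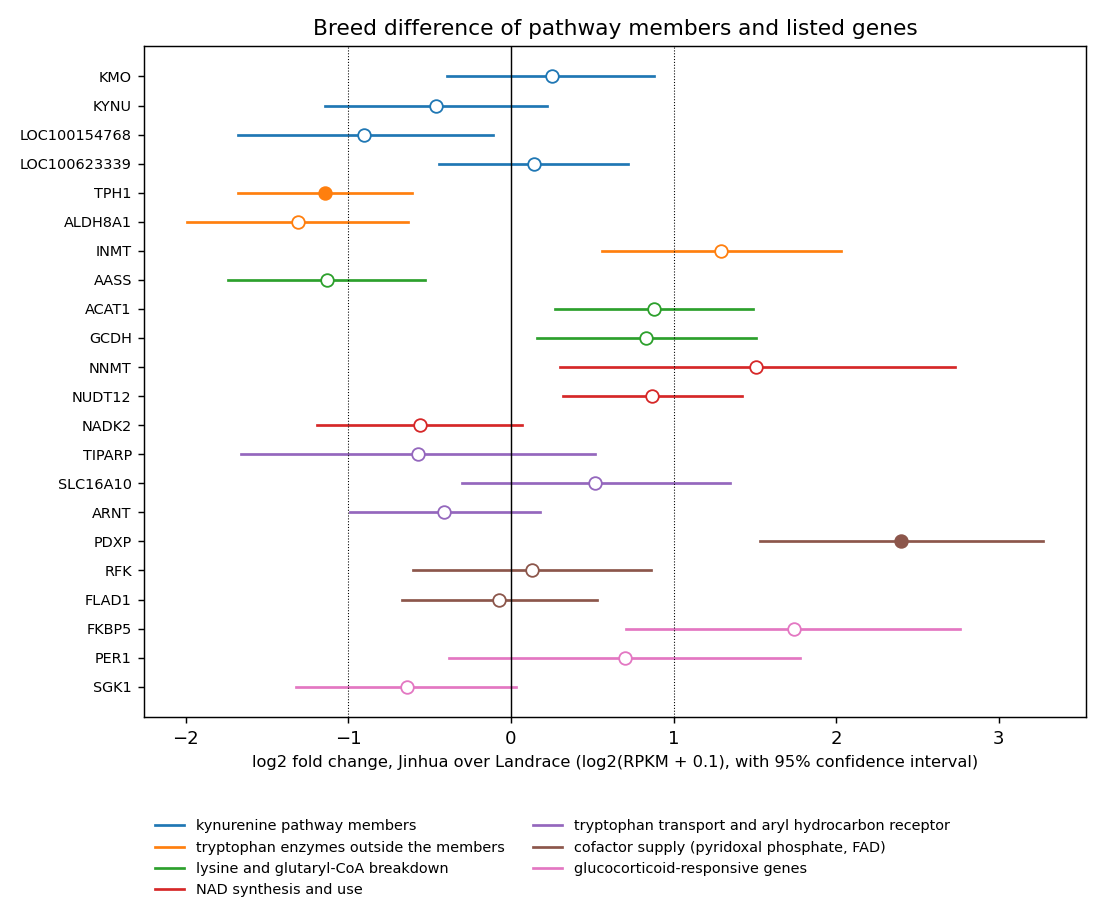
Log2 fold changes of JH (Jinhua) over LD (Landrace) on the scale of log2(RPKM + 0.1), with 95% confidence intervals from limma (3 libraries per breed), for the 4 tested kynurenine pathway genes and, of each listed group, the called genes and the 3 with the largest absolute value. Filled points mark the called genes, TPH1 at -1.14 and PDXP at 2.40; dotted lines mark the fold change limit.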

How the data were processed

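Liver mRNA was sequenced from 3 JH and 3 LD pigs. The authors aligned single reads to Sus scrofa 10.2 with TopHat2 (version 2.0.13 in the submitters' processing notes), used gfold to count them, and deposited the result as RPKM, 1 file per library. The miRNA files were not used here. Members were matched by symbol, and afterwards by NCBI gene ID in the RefSeq table of assembly Sscrofa11.1, which differs from the authors' build, so that no coordinates are given.

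Read numbers and library totals were recovered by finding the gene length at which the 6 RPKM values of a gene become whole reads. Reads are not independent molecules, so they describe counting error only. For AADAT, where 2 values are above 0, 0.039 lengths would be found by chance.

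Breeds were compared with limma 3.58.1 in R 4.3.3 (lmFit, eBayes with trend) on log2(RPKM + 0.1), keeping genes that reached 0.5 RPKM in 3 or more libraries. Benjamini-Hochberg adjustment covered all 12993 tested genes, and p-values are two-sided. Both steps were tested on simulated data. The replicate numbers of the labels were used as names and not as a block. With 3 pigs against 3, an exact permutation test of a single gene could not reach the threshold and none is given.

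The members and lists were chosen with earlier results of these data known. Genes named are the 8 members; of each list every called gene, the 3 tested with the largest absolute log2 fold change and the 2 with the highest mean RPKM; the 3 genes on each side of AADAT; the 5 tested genes with the highest and the 3 with the lowest correlation with AADAT; and RN18S. CCBL1, CCBL2 and GOT2, others with non-overlapping values, rows matched by gene ID, the genes at 0 in one library and high in another or at 0 in all, and single cell type markers were named after their values were seen. Alternatives were other pseudocounts and filters, quantile normalization, median scaling, a replicate block, no fold change limit and each library left out. Tables and plots were made in Python 3.11.15 with numpy 2.4.6, pandas 2.3.3 and matplotlib 3.10.9.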

Additional observations from a re-analysis of the deposited data

How the results depend on the processing

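The count of 0 called members was the same under each alternative run. The log2 fold change of KMO lay between -0.0041 (without JH1) and 0.45 with 1 library left out, that of the QPRT row between -0.044 (without LD3) and 0.26, and that of RFK between -0.22 (without JH1) and 0.36. That of FLAD1 lay between -0.23 and 0.12 (without JH3), and was 0.019 without LD3. KYNU and the ACMSD row kept their sign throughout. Of 649 values of 50 named genes under the alternatives, 589 kept direction and side of the threshold, 40 lost a call, 15 gained one and 5 changed sign. The causes were not tested.

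Of the listed pathway genes, 2 were called. With a pseudocount of 0.01 or no filter on low values the count was 1, as TPH1 was lost, and under quantile normalization or median scaling it was 3, as ALDH8A1 was gained. It was between 0 and 3 with 1 library left out: 0 without LD1, 1 without JH1, JH2 or LD2, and 3 without LD3. The fit without JH1 called INMT, those without JH2 or LD2 called PDXP, and that without LD3 called PDXP, ALDH8A1 and FKBP5. The fits with 1 library left out keep the genes tested with all 6 libraries, a choice made after seeing the data. Applying the filter again to the remaining 5 libraries, as was done first, gave 0 without LD1 or LD2 and 1 without JH1 or JH2. Over all genes, 310 calls became 199 with a pseudocount of 0.01, 200 with no filter, 398 under quantile normalization, 384 with median scaling, and between 79 (without LD1) and 406 (without JH3) with 1 library left out, or between 63 and 403 with the filter applied again.

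The difference of mean log2 values of AADAT, 5.89, was 8.10 with a pseudocount of 0.01 and 3.70 with 1, and lay between 3.82 and 8.83 with 1 library left out; the stricter filter gives no other value. These sizes follow from the pseudocount, as the LD libraries are listed at 0.

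With the replicate block, 253 genes were called over all, with 0 members and 2 listed pathway genes, the difference of AADAT was 5.89, and of the called markers HBB and GLUL were not called, while the KRT19 row was. Deviations of same-numbered libraries correlated at -0.0163, 0.0516 and 0.177, so the numbers were not taken to pair pigs; JH1 and JH2 correlated better with another LD number than with their own.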
